A study of Homo sapiens with 6 samples.

Results

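Matrix metalloproteases (MMPs) and the ADAMTS proteases are zinc-dependent enzymes that cut the proteins of the extracellular matrix, and the tissue inhibitors of metalloproteases (TIMPs) bind their active sites and block them. The genes described here are 18 MMPs, 19 ADAMTS proteases and 5 inhibitors, the 4 TIMPs and RECK, an inhibitor anchored in the cell membrane. They were chosen by gene symbol, and all 42 symbols matched a row among the 58051 Ensembl gene IDs of the deposited table. The libraries come from A375, a widely used line of human melanoma cells with mutant BRAF. Cells of both groups were starved of serum for 2 h. The 3 TGFB1 libraries are from cells then given 10 ng/mL of recombinant human TGFB1, a ligand of the TGF-beta receptors, for 2 h. The 3 Vehicle libraries are from cells given the carrier solution, 4 mM HCl with 1 mg/mL BSA, for the same time. The series calls the 3 libraries of a group technical triplicates of 1 cell line, so p-values here measure the spread between these libraries and not that between independent experiments. The comparison asks which of these genes changed within 2 h of the ligand.

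MMPs and ADAMTS proteases are made as inactive precursors, and the proprotein convertase furin removes the propeptide of the membrane-anchored MMPs and of many ADAMTS proteases. MMPs as a family degrade collagens, gelatin, laminins and fibronectin, while a clade of ADAMTS proteases cleaves the large proteoglycans aggrecan and versican. TGF-beta is known in many tissues as a regulator of matrix genes, and in fibroblasts it is known to raise TIMP1 and to lower collagenase and stromelysin genes. In melanoma, MMP2, MMP14 and their inhibitor TIMP2 are known for their part in pericellular proteolysis, in which MMP14 activates MMP2 with TIMP2 as the bridge.

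Library totals ran from 32458753 to 34895075 counts with TGFB1 and from 24713894 to 34374668 in Vehicle. The treatment check was clear: SMAD7, whose protein blocks the receptors, averaged 61.2 ± 4.02 CPM (counts scaled to the library total) with TGFB1 and 9.26 ± 1.87 CPM in Vehicle (SD, n = 3 each). The further targets SKIL and PMEPA1 averaged 204.7 ± 4.06 and 137.0 ± 16.0 CPM with TGFB1 and 73.3 ± 0.718 and 57.3 ± 1.79 CPM in Vehicle. Of 9 melanocyte markers, 5 averaged under 1 CPM, and SOX10 among them had 0 counts in all libraries. The annotation and strand setting of the counting are not given, so this 0 does not show that SOX10 RNA was absent. MITF fell with TGFB1 (log2 fold change -0.23, edgeR adjusted p = 0.0355), and the melanocyte markers summed to 112.9 to 117.0 CPM with TGFB1 and 124.5 to 136.2 CPM in Vehicle. Most of that sum was MITF, at 53.5 CPM with TGFB1 and 62.4 in Vehicle, and S100B, at 54.7 and 58.7 CPM. Of the 7 melanocyte markers tested, 5 had a negative and 2 a positive log2 fold change, and MITF alone was called. The summed level of 5 markers of dedifferentiated melanoma was 438.0 to 454.3 CPM with TGFB1 and 402.6 to 434.7 CPM in Vehicle. Leukocyte markers summed to 6.04 to 6.91 CPM with TGFB1 and 6.81 to 7.58 CPM in Vehicle, endothelial markers to 15.1 to 16.1 and 13.1 to 18.2 CPM, epithelial markers to 14.9 to 18.9 and 14.0 to 17.02 CPM, and fibroblast markers to 17.1 to 18.0 and 18.9 to 22.8 CPM. No gene of these 5 further marker lists was called by the test described below, and the part of these cell types in the results was not tested. Vehicle replicate 3 lay closer to the TGFB1 libraries than the other Vehicle libraries did. The chi-square per gene between its counts and those of a TGFB1 library, which is about 1 where only counting error separates libraries, was 10.9 to 14.2. For Vehicle replicate 2 it was 16.9 to 20.1, and for Vehicle replicate 1 it was 24.0 to 31.1. Among the Vehicle libraries it was 12.4 for replicates 1 and 2, 25.1 for 1 and 3, and 11.2 for 2 and 3. Vehicle replicate 1 was thus the farthest from the TGFB1 libraries, and replicate 3 lay about as near to Vehicle replicate 2 as to them. Without Vehicle replicate 3, 923 of 17193 genes tested were called.

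The inhibitor genes TIMP3 and TIMP1 led the 42 transcripts in level per length of exon, while TIMP2 held place 8 and RECK place 18 in both groups. TIMP3, which encodes an inhibitor that binds to the matrix and also blocks ADAMTS and ADAM proteases, took 54.5% to 54.9% of all counts of these genes with TGFB1 and 53.4% to 56.0% in Vehicle. Levels of different genes are compared as CPM per kilobase of exon. On that scale TIMP3 stood at 219.7 ± 8.91 with TGFB1 and 196.2 ± 13.1 in Vehicle, and TIMP1, which encodes a soluble inhibitor, at 86.7 ± 5.30 and 73.8 ± 4.98 (SD, n = 3 each). The next in order were the membrane-anchored protease genes MMP16, at 22.8 ± 0.732 with TGFB1 and 22.8 ± 1.68 in Vehicle, and MMP14, at 17.6 ± 1.08 and 15.9 ± 1.07. These first 4 places were the same in both groups. Below them the order differed: ADAMTS15 held place 6 with TGFB1 and place 15 in Vehicle. Of the 42 genes, 3 averaged at least 100 CPM over the 6 libraries, 11 lay between 10 and 100 CPM, 8 between 1 and 10 CPM and 20 under 1 CPM. All 42 had at least 1 count in some library. The 9 that did not pass the low-count filter were MMP7, MMP11, MMP12, MMP25, MMP28, ADAMTS14, ADAMTS18, ADAMTS19 and TIMP4, with 1 to 45 counts each over the 6 libraries.

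**Figure D1:**
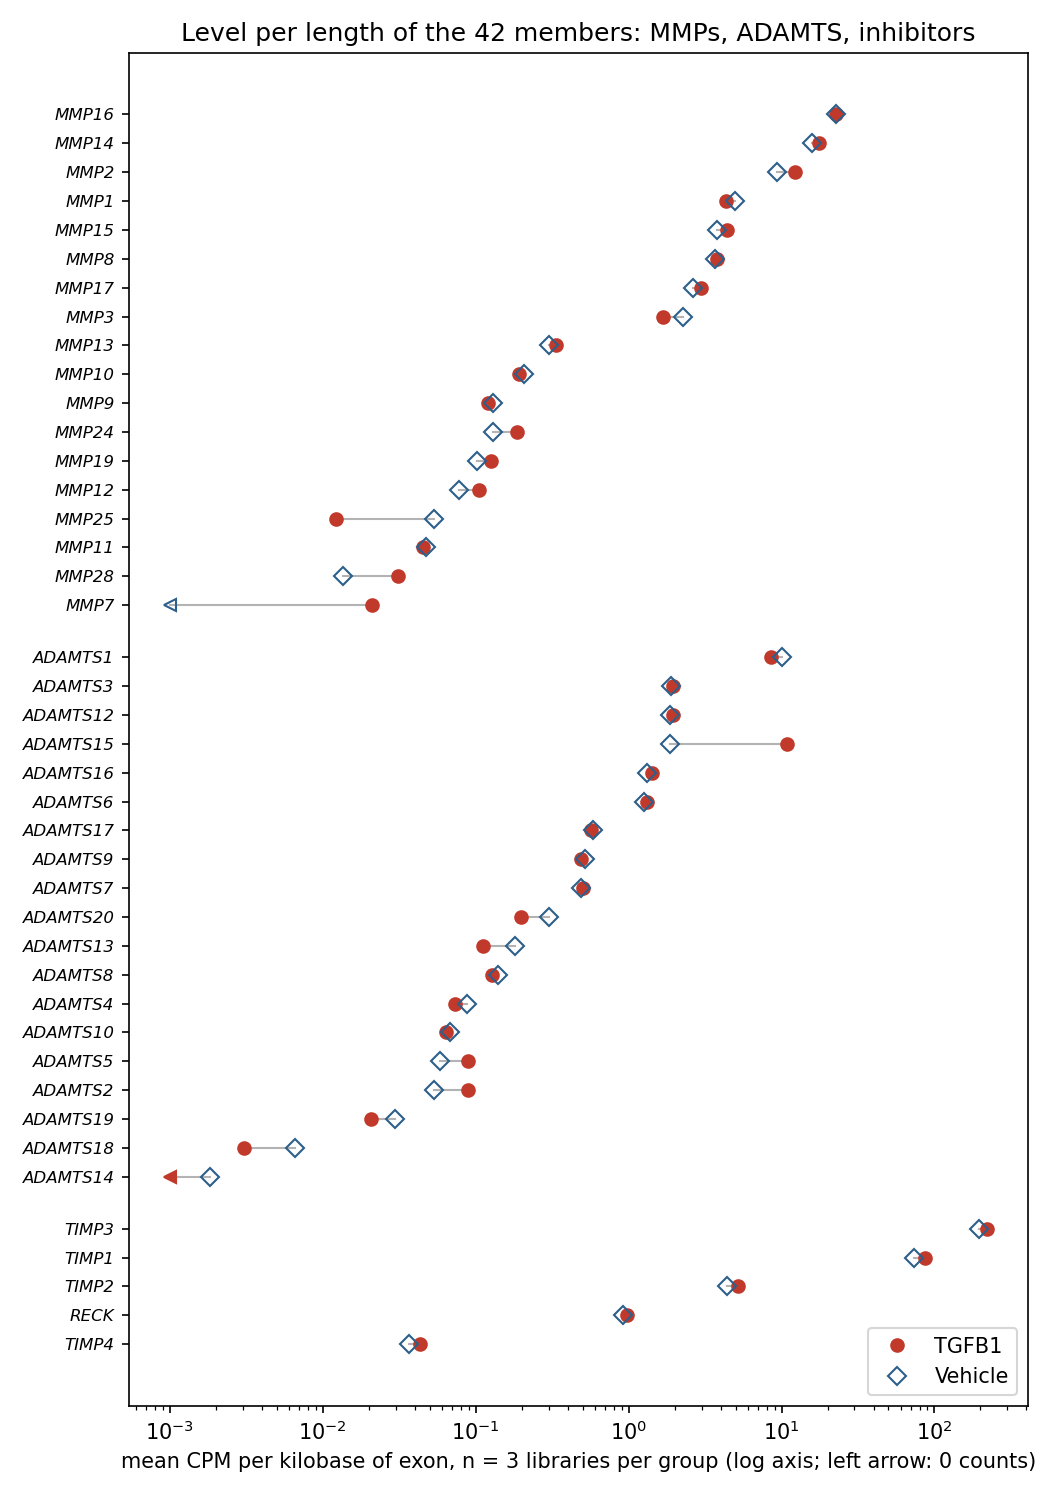
Mean CPM per kilobase of exon of the 42 genes on a log axis, with TGFB1 as filled circles and Vehicle as open diamonds (n = 3 libraries each), ordered within family by the Vehicle level; an arrow marks 0 counts. TIMP3 and TIMP1 lie farthest to the right, and the markers of ADAMTS15 lie far apart, at 10.9 with TGFB1 and 1.86 in Vehicle.

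Among the 33 genes tested, 2 rose with TGFB1, ADAMTS15 and TIMP1, and 1 fell, ADAMTS1 (edgeR's quasi-likelihood test, Benjamini-Hochberg adjustment over all 16690 genes tested, threshold 0.05). Over all genes tested, 3.31% were called, 2.43% as higher and 0.887% as lower. At an unadjusted p under 0.05 there were 10 of the 33, against 12.3% of all genes. For 9 of the 33, 4 higher and 5 lower with TGFB1, no TGFB1 library fell within the Vehicle range, against 16.4% of all genes. The median log2 fold change of the 33 was 0.06, and that of all genes tested was -0.01; the median of its size was 0.16 among the 33 and 0.10 among all. ADAMTS15 was the single member that differed by at least 2-fold. In RNA from a whole culture, a change in RNA per cell and a change in the share of cells that make it cannot be told apart.

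**Figure D2:**
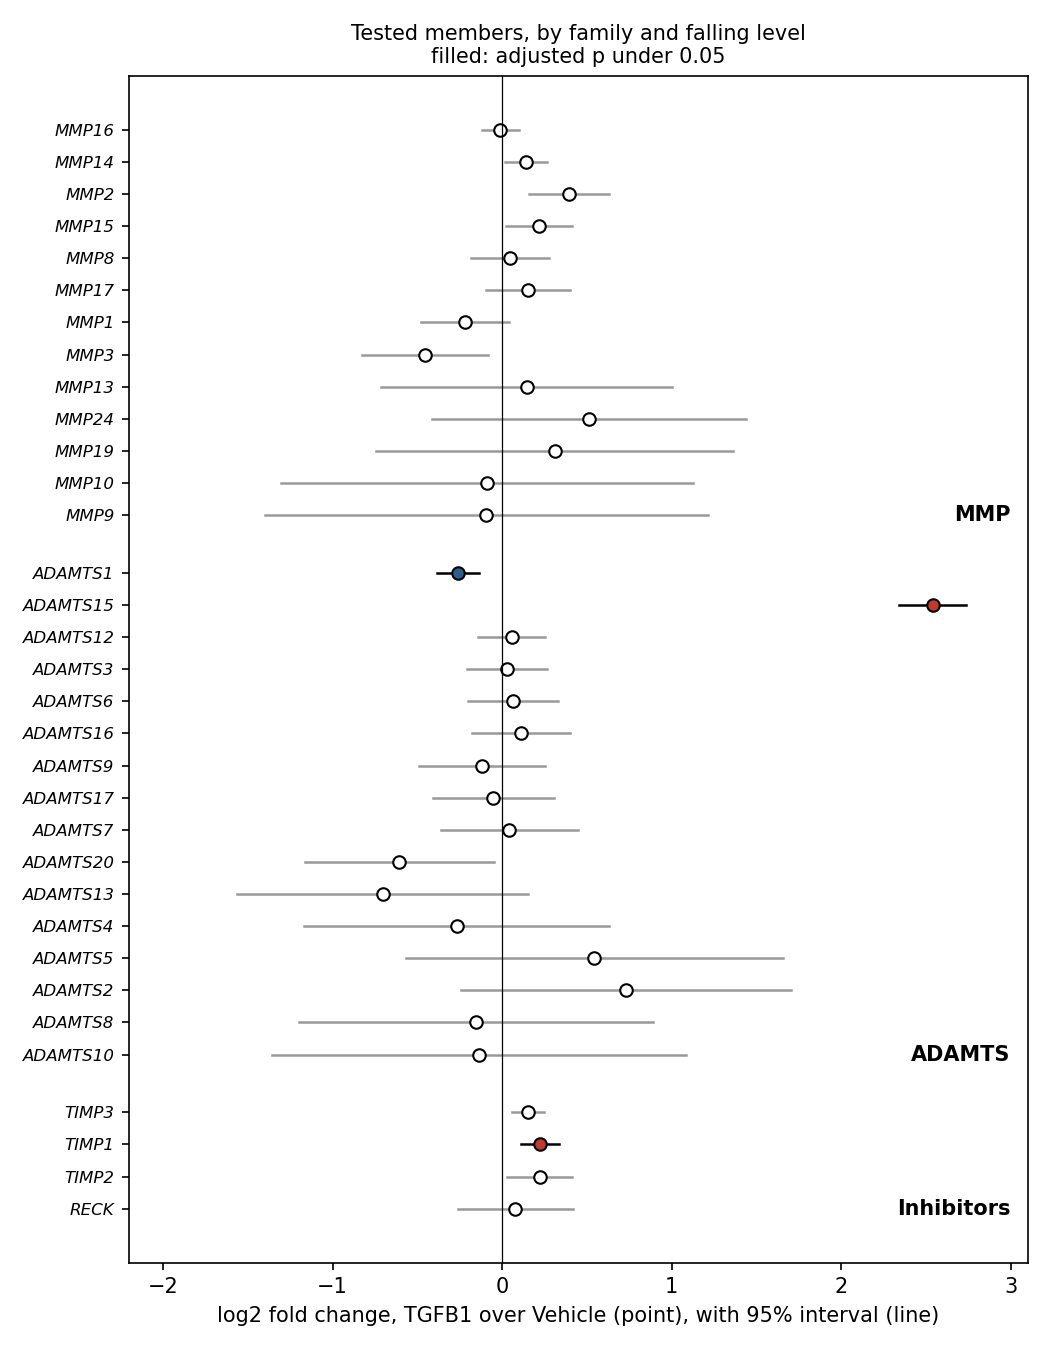
Log2 fold change of TGFB1 over Vehicle for the 33 tested genes (points) with 95% intervals (lines), by family and in falling order of level; filled points passed the adjusted threshold. ADAMTS15 lies at 2.54, ADAMTS1 at -0.26 and TIMP1 at 0.22, and the intervals widen down each family as the level falls.

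ADAMTS15 encodes a secreted protease that cleaves aggrecan and versican. It had 60.7, 53.0 and 71.8 CPM in TGFB1 replicates 1, 2 and 3, against 9.91, 10.5 and 11.2 CPM in the Vehicle libraries. Every TGFB1 library lay well above every Vehicle library, and the Vehicle libraries lay close together. The means were 61.8 ± 9.44 CPM with TGFB1 and 10.5 ± 0.661 CPM in Vehicle (SD, n = 3 each). The gene rose 5.82-fold, a log2 fold change of 2.54 ± 0.10 (SE, edgeR adjusted p = 5.76e-19). The call held in all 13 alternative fits, with log2 fold changes of 2.42 to 2.64. The gene (ENSG00000166106) lies on chromosome 11 at 130448974 to 130476641 on the plus strand (GRCh38, GENCODE 29), and none of its exonic bases is shared with another annotated gene.

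ADAMTS8, another proteoglycan-cleaving member, is the neighbour of ADAMTS15. It lies on the minus strand, and 19980 bases separate the genes. ADAMTS8 had 14, 23 and 21 counts in TGFB1 replicates 1, 2 and 3, against 4, 29 and 27 counts in the Vehicle libraries. Vehicle replicate 1 was the lowest of all and the groups overlapped. Its log2 fold change was -0.15 with a 95% interval of -1.20 to 0.89 (edgeR adjusted p = 0.956). At these low counts, changes in either direction within that interval remain compatible with the data. The difference between the neighbours was not tested.

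ADAMTS1 encodes a protease that cleaves versican and aggrecan and is known for early induction in inflammation and ovulation. It had 61.0, 57.7 and 60.8 CPM with TGFB1, against 74.2, 69.2 and 70.5 CPM in Vehicle. The groups did not overlap, and all TGFB1 libraries were lower. The means were 59.9 ± 1.83 CPM with TGFB1 and 71.3 ± 2.61 CPM in Vehicle (SD, n = 3 each). The gene fell, with a log2 fold change of -0.26 ± 0.06 (SE, edgeR adjusted p = 0.00685). Without Vehicle replicate 1, the highest library, the call was lost (log2 fold change -0.22, edgeR adjusted p = 0.0596). The gene (ENSG00000154734) lies on chromosome 21 at 26835747 to 26845409 on the minus strand.

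ADAMTS15 and ADAMTS1 thus moved in opposite directions, and their order per kilobase of exon changed. In CPM with TGFB1, ADAMTS15 lay below ADAMTS1 in replicates 1 and 2 and above it in replicate 3. The order with TGFB1 therefore rests on the exon lengths used, 5673 bases for ADAMTS15 and 7063 for ADAMTS1. Per kilobase of exon, ADAMTS15 stood at 10.7, 9.35 and 12.7 with TGFB1, where ADAMTS1 stood at 8.64, 8.18 and 8.61. In Vehicle, ADAMTS15 stood at 1.75, 1.84 and 1.98, where ADAMTS1 stood at 10.5, 9.80 and 9.98. The ratio of ADAMTS15 to ADAMTS1 per kilobase was 1.24, 1.14 and 1.47 in the TGFB1 libraries and 0.166, 0.188 and 0.198 in the Vehicle libraries. Ranked per kilobase among the 19 ADAMTS genes, ADAMTS15 held place 1 with TGFB1 and place 4 in Vehicle. ADAMTS1 held place 2 with TGFB1 and place 1 in Vehicle. Summed over the 19 genes, the ADAMTS level was 198.9, 177.9 and 204.4 CPM with TGFB1 and 152.8, 149.2 and 155.9 CPM in Vehicle. Of these sums, ADAMTS15 alone made up 60.7, 53.0 and 71.8 CPM with TGFB1 and 9.91, 10.5 and 11.2 CPM in Vehicle. No other ADAMTS gene was called as higher, so the sums do not show a rise across the family.

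Of the other proteoglycan-cleaving members, none passed the test. ADAMTS20, known in the mouse for its part in the spread of melanoblasts, had 1.57, 1.38 and 1.36 CPM with TGFB1, against 2.31, 1.98 and 2.24 CPM in Vehicle. Its groups did not overlap, but the counts were low, 44 to 77 per library, and its log2 fold change was -0.61 with a 95% interval of -1.17 to -0.05 (edgeR adjusted p = 0.341). ADAMTS9, a protease also required for primary cilia, had 4.34, 4.38 and 6.81 CPM with TGFB1, against 4.53, 5.61 and 6.55 CPM in Vehicle, and its groups overlapped (edgeR adjusted p = 0.876). ADAMTS4 and ADAMTS5, the main aggrecanases of cartilage, averaged under 1 CPM in both groups. ADAMTS5, which neighbours ADAMTS1 at a distance of 72502 bases, had 18, 35 and 28 counts with TGFB1, against 1, 22 and 29 counts in Vehicle. Vehicle replicate 1 again held the lowest count, and the groups overlapped (edgeR adjusted p = 0.776).

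No ADAMTS gene of another role passed the test. ADAMTS12, which encodes a protease of cartilage oligomeric matrix protein, had 19.9, 18.7 and 18.8 CPM with TGFB1, against 19.7, 18.2 and 16.9 CPM in Vehicle. ADAMTS3, a procollagen N-proteinase that also acts in the activation of VEGF-C, had 16.7, 12.6 and 12.5 CPM with TGFB1, against 13.8, 12.7 and 14.2 CPM in Vehicle. ADAMTS6, which acts on fibrillin microfibrils, had 11.4, 11.3 and 11.4 CPM with TGFB1, against 8.58, 10.1 and 13.5 CPM in Vehicle. The groups overlapped for all 3 of these genes. The Vehicle libraries of ADAMTS6 spread widely and its TGFB1 libraries hardly at all. ADAMTS16 had 9.75, 8.22 and 7.21 CPM with TGFB1, against 8.54, 7.68 and 6.98 CPM in Vehicle, again with overlap. The 95% intervals of the log2 fold change were -0.14 to 0.25 for ADAMTS12, -0.21 to 0.27 for ADAMTS3, -0.20 to 0.33 for ADAMTS6 and -0.18 to 0.40 for ADAMTS16. ADAMTS17 and ADAMTS7 lay between 2.98 and 5.22 CPM in every library. At lower counts, ADAMTS13, which cleaves von Willebrand factor, had 21, 16 and 26 counts with TGFB1, against 25, 38 and 29 in Vehicle. Its groups overlapped in counts but not in CPM, and it did not pass (edgeR adjusted p = 0.544). ADAMTS2, a procollagen N-proteinase, had 29, 19 and 29 counts with TGFB1, against 14, 15 and 12 in Vehicle, and overlapped in CPM (edgeR adjusted p = 0.601). ADAMTS10 had 8 to 18 counts per library with TGFB1 and 5 to 23 in Vehicle.

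Of the MMP genes, the membrane-anchored MMP16 and MMP14 had the highest levels per kilobase of exon, and MMP2 came next in both groups. MMP16 had 287, 271 and 272 CPM with TGFB1, against 271, 299 and 259.8 CPM in Vehicle. Its groups overlapped fully, and the 95% interval of its log2 fold change, -0.12 to 0.10, was the narrowest among the proteases. MMP14, whose protein is a collagenase and the activator of MMP2, had 83.5, 78.9 and 73.8 CPM with TGFB1, against 66.1, 70.9 and 75.7 CPM in Vehicle. The groups overlapped through Vehicle replicate 3, and the log2 fold change was 0.14 ± 0.06 (SE, edgeR adjusted p = 0.302). Without that library it was 0.18 (edgeR adjusted p = 0.105). MMP15 had 19.0, 19.3 and 19.9 CPM with TGFB1, against 16.6, 15.3 and 17.8 CPM in Vehicle. Its groups did not overlap, yet it did not pass (log2 fold change 0.22 ± 0.10 SE, edgeR adjusted p = 0.327). MMP17, held by a lipid anchor, had 13.4, 10.0 and 12.1 CPM with TGFB1, against 10.4, 9.95 and 11.3 CPM in Vehicle, and its groups overlapped. MMP24 and MMP25 averaged under 1 CPM, as did the secreted MMP11, MMP19 and MMP28. MMP25 had 5 counts in all with TGFB1 and 20 in Vehicle, and 35.2% of its exonic bases lie under an antisense gene. The strand setting of the counting is not given in the sources used here, so these few counts are uncertain.

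The gelatinases were unequal. MMP2, which cleaves type IV collagen and gelatin, had 70.0, 54.2 and 58.4 CPM with TGFB1, against 40.8, 42.1 and 54.7 CPM in Vehicle. Vehicle replicate 3 lay just above TGFB1 replicate 2, and the other Vehicle libraries lay below every TGFB1 library. The means were 60.9 ± 8.13 CPM with TGFB1 and 45.9 ± 7.68 CPM in Vehicle (SD, n = 3 each). The log2 fold change of 0.40 ± 0.11 (SE) did not pass (edgeR adjusted p = 0.0842). Without Vehicle replicate 3 it was 0.53 and passed (edgeR adjusted p = 2.21e-06), and without TGFB1 replicate 2 it also passed (edgeR adjusted p = 0.0387). DESeq2 (adjusted p = 0.00452), limma-voom (0.0121) and edgeR with no low-count filter (1.14e-06) called it as well. It passed in 5 of 13 alternative fits. MMP9, the other gelatinase, had 9, 9 and 10 counts with TGFB1, against 11, 10 and 5 counts in Vehicle. The ratio of MMP2 to TIMP2 per kilobase was 2.71, 2.40 and 2.05 with TGFB1 and 2.08, 2.07 and 2.16 in Vehicle, with overlap.

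**Figure D3:**
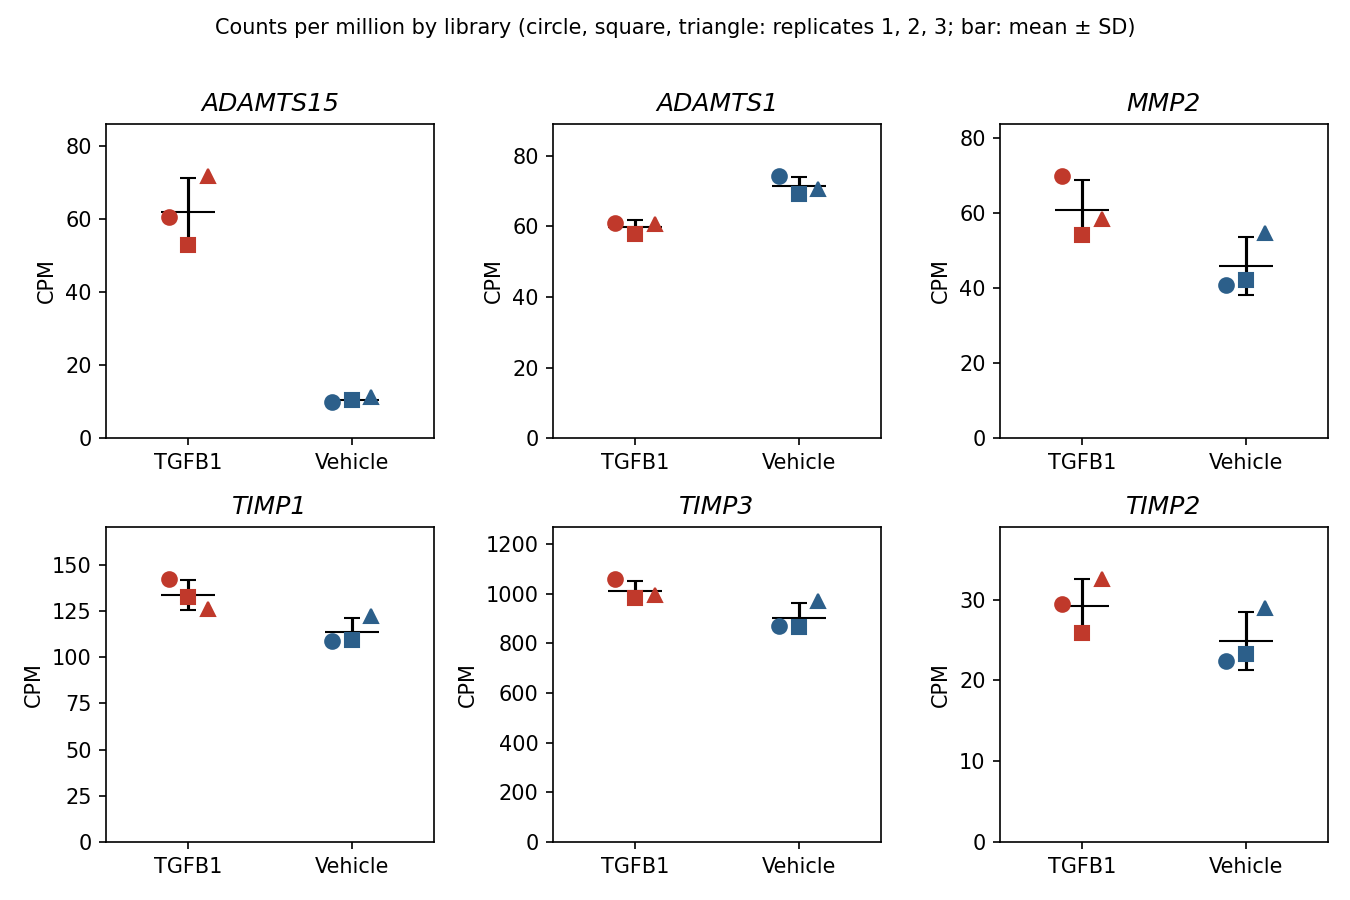
CPM of 6 members in each library, with TGFB1 left and Vehicle right in each panel (circle, square and triangle for replicates 1, 2 and 3; bars give the mean ± SD, n = 3). ADAMTS15 is high in all TGFB1 libraries and ADAMTS1 is low in them, and for MMP2, TIMP1, TIMP2 and TIMP3 the triangle of Vehicle replicate 3 lies nearest to the TGFB1 libraries.

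The secreted collagenase genes and the stromelysin genes MMP3 and MMP10 sit in a cluster of 9 MMP genes on chromosome 11. MMP11, listed with the stromelysins, lies on chromosome 22. The cluster spans 102520508 to 102955734, with all 9 genes on the minus strand. The cluster holds 7 of the members, MMP7, MMP8, MMP10, MMP1, MMP3, MMP12 and MMP13, beside MMP20 and MMP27. Of the 9 genes, 6 averaged under 1 CPM, and the 3 others were MMP8, MMP1 and MMP3. MMP8, known as the collagenase of neutrophils, had 14.7, 12.8 and 11.6 CPM with TGFB1, against 12.6, 12.4 and 12.7 CPM in Vehicle. The groups overlapped, and its 95% interval was -0.18 to 0.28 on the log2 scale. Among leukocyte markers, PTPRC had 2 to 6 counts per library with TGFB1 and 5 to 13 in Vehicle, and CD68 had 0 or 1 count in each library. Of the exonic bases of CD68, 81.7% are shared with the same-strand gene AC016876.2. The counting mode is not given, so the low counts of CD68 are uncertain. LYZ, the lysozyme gene in the same list, had 184 to 220 counts per library with TGFB1 and 162 to 226 in Vehicle and made up most of the summed leukocyte level. CSF1R had 6 to 13 counts with TGFB1 and 3 to 17 in Vehicle, and CD3E 0 to 5 and 0 to 1. The part of such cells in the level of MMP8 was not tested. MMP1, which encodes interstitial collagenase, had 8.70, 8.86 and 7.95 CPM with TGFB1, against 9.14, 9.66 and 10.7 CPM in Vehicle. MMP3, which encodes the protease stromelysin, had 3.57, 3.50 and 3.20 CPM with TGFB1, against 4.77, 4.83 and 4.42 CPM in Vehicle. For both genes every TGFB1 library lay below every Vehicle library, but neither passed: the log2 fold change was -0.22 ± 0.13 for MMP1 and -0.46 ± 0.18 for MMP3 (SE, edgeR adjusted p = 0.522 and 0.241). Neither was called in any of 13 alternative fits. MMP13, a collagenase of cartilage, lay at 0.465 to 1.10 CPM, and MMP10, MMP12 and MMP7 lay lower still. MMP7, an epithelial protease known as matrilysin, had 1, 4 and 0 counts with TGFB1 and 0 in every Vehicle library, which is at the floor of what these libraries can show. Of the exonic bases of MMP1, 7.61% lie under the opposite-strand gene WTAPP1.

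**Figure D4:**
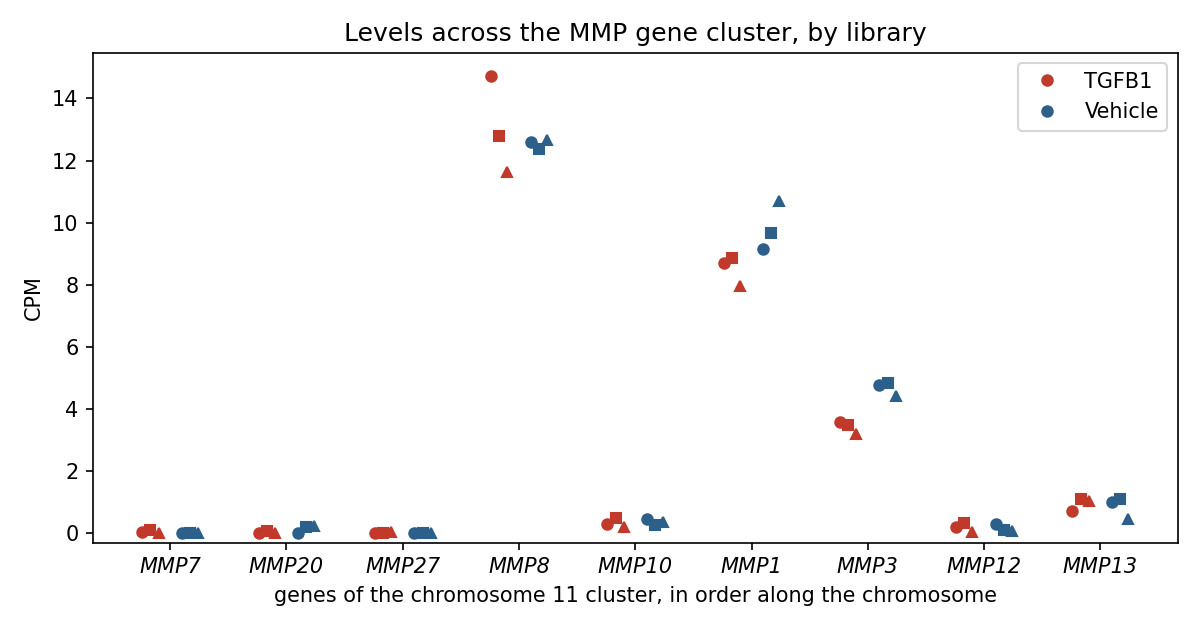
CPM in each library of the 9 genes of the MMP cluster on chromosome 11, in order along the chromosome, with TGFB1 left and Vehicle right for each gene (circle, square and triangle for replicates 1, 2 and 3). MMP8, MMP1 and MMP3 stand above the rest, and for MMP1 and MMP3 all TGFB1 points lie below the Vehicle points.

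Among the inhibitors, TIMP1 passed the test. It had 142, 133 and 126 CPM with TGFB1, against 109, 109 and 123 CPM in Vehicle. The groups did not overlap, and Vehicle replicate 3 lay close to TGFB1 replicate 3. The means were 133.5 ± 8.16 CPM with TGFB1 and 113.7 ± 7.68 CPM in Vehicle (SD, n = 3 each). The log2 fold change was 0.22 ± 0.06, a 1.17-fold rise (SE, edgeR adjusted p = 0.0149). The call was lost without TGFB1 replicate 1 (edgeR adjusted p = 0.212), Vehicle replicate 1 (0.073) or Vehicle replicate 2 (0.123), and over 13 alternative fits the log2 fold change was 0.18 to 0.27. The gene (ENSG00000102265) lies on chromosome X at 47582313 to 47586789 on the plus strand.

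TIMP3 had 1058, 981 and 994 CPM with TGFB1, against 871, 866 and 973 CPM in Vehicle. The groups did not overlap, though Vehicle replicate 3 came close to TGFB1 replicate 2. Its log2 fold change was 0.16 ± 0.05 and it stayed just outside the threshold (SE, edgeR adjusted p = 0.0615). TIMP3 passed in 4 of 13 alternative fits. These were the fits without Vehicle replicate 3 (0.20, edgeR adjusted p = 0.00483) and with a replicate block (edgeR adjusted p = 0.0237). The others were DESeq2 (adjusted p = 0.0174) and limma-voom (adjusted p = 0.0399). In the remaining fits it was not called, with an edgeR adjusted p of up to 0.408. TIMP2, which blocks MMP2 and takes part in its activation, had 29.5, 25.8 and 32.5 CPM with TGFB1, against 22.5, 23.3 and 28.98 CPM in Vehicle. The groups overlapped through Vehicle replicate 3. Its log2 fold change was 0.22 ± 0.09 (SE, edgeR adjusted p = 0.299). TIMP2 passed in 1 of 13 alternative fits, the one without that library (0.33, edgeR adjusted p = 0.0232). RECK had 5.44, 6.56 and 5.64 CPM with TGFB1, against 4.45, 5.25 and 6.87 CPM in Vehicle, with overlap. TIMP4 had 7 counts in all with TGFB1 and 6 in Vehicle. Vehicle replicate 3 was the highest Vehicle library for 14 of the 18 members that averaged 5 CPM or more, and TGFB1 replicate 1 was the highest TGFB1 library for 11 of them.

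Promoter windows of 300 bases, from 250 before to 50 after the start in RefSeq (GRCh38.p14), were found by symbol for 23 of the 42 genes, and those of ADAMTS15 and ADAMTS1 were not among them. The windows of the 2 most abundant inhibitors are shown because their RNAs make up most of the counts of these genes and TIMP1 was called. That of MMP10, a stromelysin gene that stayed under 1 CPM, is shown as a contrast. Capitals mark matches on either strand to TGANTCA (the AP-1 consensus), TGAGTAA (a variant of it), GTCTAGAC and GGCGCC (SMAD motifs), GGAATG (a TEAD motif) or TATAAA (the TATA box). TGAGTAA was added after the TIMP1 sequence had been read.
TIMP1, chrX:47582186-47582485, plus strand: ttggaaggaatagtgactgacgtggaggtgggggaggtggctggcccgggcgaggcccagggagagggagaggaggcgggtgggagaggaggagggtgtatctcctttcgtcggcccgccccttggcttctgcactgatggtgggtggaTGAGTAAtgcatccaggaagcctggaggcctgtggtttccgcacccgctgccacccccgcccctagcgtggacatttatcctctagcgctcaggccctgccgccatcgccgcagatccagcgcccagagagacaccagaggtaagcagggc
TIMP3, chr22:32801455-32801754, plus strand: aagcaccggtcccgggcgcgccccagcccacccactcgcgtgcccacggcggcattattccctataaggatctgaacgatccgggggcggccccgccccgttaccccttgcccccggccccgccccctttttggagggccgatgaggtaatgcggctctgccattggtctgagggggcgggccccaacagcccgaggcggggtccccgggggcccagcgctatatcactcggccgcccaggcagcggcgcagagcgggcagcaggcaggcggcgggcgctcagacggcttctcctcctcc
MMP10, chr11:102780579-102780878, minus strand: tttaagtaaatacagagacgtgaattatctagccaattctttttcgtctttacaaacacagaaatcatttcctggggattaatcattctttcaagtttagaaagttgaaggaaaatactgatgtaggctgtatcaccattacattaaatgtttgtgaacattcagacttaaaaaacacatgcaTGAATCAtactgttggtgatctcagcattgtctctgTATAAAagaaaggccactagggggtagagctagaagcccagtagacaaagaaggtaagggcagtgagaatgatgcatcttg

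The TIMP1 window held TGAGTAA at position -101 from the start, and none of the other motifs. The TIMP3 window held none of the 6, and its GC content was 72.7%, against 65.0% for TIMP1 and 36.3% for MMP10. The MMP10 window held TGAATCA, a match to TGANTCA, at position -67 and TATAAA at position -31. MMP10 had 10, 17 and 7 counts with TGFB1, against 11, 8 and 13 counts in Vehicle, with overlap. TGANTCA occurred in 3 of the 23 windows, those of ADAMTS12, MMP7 and MMP10, and in 7.71% of all 35116 windows. TGAGTAA occurred in 1 of the 23 and in 2.57% of all, TATAAA in 4 and 11.5%, GGCGCC in 4 and 19.2%, GGAATG in 4 and 14.0%, and GTCTAGAC in 0 and 0.202%. A match is a run of letters and no measure of binding.

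A list of 66 other genes of the extracellular protease system and its substrates gave 7 that rose and 0 that fell among the 48 tested, beside the 2.43% and 0.887% of all genes. Their median log2 fold change was 0.07. The activator FURIN, the convertase that cuts the propeptides, had 76.1, 61.8 and 72.6 CPM with TGFB1, against 46.5, 44.3 and 52.5 CPM in Vehicle. All TGFB1 libraries were higher, and its log2 fold change was 0.55 ± 0.07 (SE, edgeR adjusted p = 1.73e-06). The sheddase gene ADAM19 rose (log2 fold change 0.48, edgeR adjusted p = 0.00176), 1 of 9 tested ADAM genes. The procollagen C-proteinase enhancer gene PCOLCE rose (0.34, edgeR adjusted p = 0.00433), and 16.6% of its exonic bases lie under an antisense gene. PCOLCE was the 1 called of 5 tested genes in a list of astacin proteases and procollagen C-proteinase enhancers. The astacin protease genes tested, BMP1, TLL1 and TLL2, were not called. Also higher were THSD4, whose ADAMTS-like protein binds fibrillin (0.41, edgeR adjusted p = 0.0312), the urokinase receptor gene PLAUR (0.27, edgeR adjusted p = 0.0218) and the laminin chain gene LAMB3 (0.33, edgeR adjusted p = 0.0164). THSD4 lost its call without any library but Vehicle replicate 3, and PLAUR without TGFB1 replicate 1 or 2 or Vehicle replicate 2 or 3 (0.21, edgeR adjusted p = 0.0811 without the last). LAMB3 lost it without TGFB1 replicate 1 or 2 or Vehicle replicate 2, and PCOLCE without TGFB1 replicate 1.

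Of 12 genes of transcription factors known to act on MMP genes, a list apart from these, 6 rose and 0 fell, beside 2.43% and 0.887% of all genes. JUNB stood at 129.4 ± 3.69 CPM with TGFB1 and 35.6 ± 1.18 CPM in Vehicle, JUN at 85.5 ± 4.19 and 35.4 ± 2.52 CPM, FOSL2 at 33.0 ± 1.56 and 15.6 ± 1.64 CPM, and FOSB at 18.6 ± 2.65 and 4.50 ± 0.795 CPM (SD, n = 3 each). These encode subunits of AP-1, a factor known to drive MMP1, MMP3 and TIMP1 promoters. Their log2 fold changes were 1.85, 1.26, 1.07 and 2.02, the largest adjusted p among them being 9.4e-11 (edgeR). ETS2 (log2 fold change 0.40, edgeR adjusted p = 0.000386) and RUNX1 (0.58, edgeR adjusted p = 3.09e-05) also rose. Each of the 6 was called in all 13 alternative fits. The AP-1 genes FOS, FOSL1 and JUND were not called (log2 fold change 0.05, 0.17 and 0.19, edgeR adjusted p = 0.953, 0.570 and 0.417). ETS1, ETV4 and RUNX2 were not called either. Of the exonic bases of JUNB, 14.2% lie under an antisense gene. In the same libraries MMP1 and MMP3 were not called in either direction, though for both every TGFB1 library lay below every Vehicle library. A link between these factors and the MMP genes or TIMP1 was not tested. Of the 6 tested cathepsin and cystatin genes none was called, and the most abundant cathepsin gene, CTSL, stood at 134.9 ± 4.14 CPM with TGFB1 and 137.6 ± 3.57 CPM in Vehicle. None of 5 further MMP genes passed the low-count filter, and the highest of them, MMP20, had 0 to 2 counts with TGFB1 and 0 to 8 in Vehicle.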

How the data were processed

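RNA-seq counts of 3 TGFB1 and 3 Vehicle libraries of A375 cells were analysed. The authors deposited raw, unnormalised counts per Ensembl gene, 1 column per library. The submitters' processing notes name cutadapt, TopHat2 2.1, HTSeq and GRCh38; annotation, counting mode and strand setting: not given in the sources used here. The labels name polyA RNA, but the protocol describes ribosomal depletion. IDs were paired with symbols by ID (56948 of 58051). Exon lengths and coordinates are those of GENCODE 29.

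Genes were kept with filterByExpr (minimum count 10, minimum total 15), scaled by TMM and tested with edgeR's quasi-likelihood F-test (edgeR 4.0.16, R 4.3.3; group as sole term; robust), which was tested on simulated data. Benjamini-Hochberg adjustment covered 16690 genes. SE is the log2 fold change divided by the square root of F. CPM use library totals. Intervals cover counting and replicate error under this model. The members and lists were chosen with earlier results of these data known. Values by library are given for members past the threshold, at a mean of at least 5 CPM, or at 1 CPM with an unadjusted p under 0.05; values of other members were picked with the values known. Of the other protease-system genes called, 1 is not reported here. Alternatives were RLE and upper-quartile scaling, 2 other filters, a replicate block, DESeq2 1.42.0, limma-voom (limma 3.58.1) and leaving out each library. The planned protein sequences were not used here.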

Additional observations from a re-analysis of the deposited data

How the results depend on the processing

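The 3 members called, ADAMTS15, TIMP1 and ADAMTS1, were called again under both other scalings, both other filters, the replicate block, DESeq2 and limma-voom. DESeq2 and limma-voom each called 5 members, adding MMP2 and TIMP3. Leaving out 1 library gave 1 to 6 called members (1 without Vehicle replicate 1, 6 without Vehicle replicate 3), 365 to 923 called genes among all and 9 to 17 called genes among the 78 others (protease system and transcription factors, 13 in the full fit). With the replicate number as a block, 4 members (TIMP3 added, edgeR adjusted p = 0.0237), 601 of all genes and 15 of the 78 others were called. The replicate numbers share only a number: same-numbered libraries correlated at -0.0296, 0.0418 and 0.00761 in their deviations from the group means, and not every library correlated best with its own number. Over 20 members and 13 alternatives, 12 values changed sign, in 7 members that were never called. Without 1 library the log2 fold change ran from -0.0384 to 0.13 for MMP8, -0.0656 to 0.0586 for MMP16, -0.11 to 0.10 for ADAMTS3, -0.0613 to 0.25 for ADAMTS6, -0.36 to 0.0024 for ADAMTS9, -0.0094 to 0.12 for ADAMTS12 and -0.0433 to 0.25 for RECK, and with no low-count filter that of MMP16 was 0.00037. The cause was not tested. Depth limits the 11 tested members under 1 CPM that were not called, whose SE was 0.42 to 0.64.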
